A study of Mus musculus with 6 samples.

Results

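Amino acid transporters of the mouse uterus were described on gestational day 4, around the time at which the uterus prepares to receive the embryo. The members were chosen by name, as the genes of the solute carrier families Slc1, Slc3, Slc6, Slc7, Slc36, Slc38 and Slc43 whose symbols match a fixed pattern, and 60 of the 21936 genes in the files matched. The rule took 7 genes of Slc1, 2 of Slc3, 19 of Slc6, 15 of Slc7, 4 of Slc36, 11 of Slc38 and 2 of Slc43. Some of these proteins carry other cargo. Slc6 includes the carriers of noradrenaline, dopamine, serotonin, GABA, creatine and taurine, and these were kept because the rule goes by name and not by cargo.

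RNA was sequenced from whole uteri, in 3 libraries labelled Mettl3 d/d and 3 labelled Mettl3 f/f. Mettl3 encodes the catalytic subunit of the complex that writes N6-methyladenosine (m6A) on RNA. In the usual notation d/d stands for the deleted form of a floxed allele and f/f for the floxed allele itself, so both groups would carry the floxed construct. Females were mated at 6 to 8 weeks of age with fertile males, the day of the plug counted as day 1, and no further treatment is named. The sources used here give neither the Cre driver nor the deleted part nor the number of animals behind a library. The p-values therefore speak of spread among these libraries, which may be technical. Mettl3 itself was at 42.9, 30.1 and 46.5 FPKM in d/d replicates 1, 2 and 3, against 30.3, 29.8 and 26.3 FPKM in f/f replicates 1, 2 and 3 (log2 fold change 0.43, SE 0.19, limma adjusted p = 0.202; exact two-sided permutation p = 0.2, where 3 against 3 libraries allow no less than 0.1). A value over the whole gene can include exons that a deletion leaves in place and is no check of the genotype. In the annotation Mettl3 also overlaps Tox4. All directions rest on the labels, and d/d means labelled d/d throughout.

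Cells take up amino acids through families of membrane carriers that differ in cargo and in the force that drives them. Some use the sodium gradient to concentrate amino acids in the cell, others exchange an amino acid inside the cell for another outside, and still others work in the membrane of the lysosome. The Slc7 light chains reach the cell surface bound to a heavy chain from family Slc3. In the pregnant uterus these carriers serve the epithelium, the stroma and muscle, and the secretion of amino acids into the lumen where the embryo lies.

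Levels are in FPKM, fragments scaled by transcript length and by the number of mapped fragments, and can be compared between genes because of the scaling by length. The unit was inferred, since the file headers name none. The libraries summed to 535043 to 625575 FPKM, with values above 0 for 15978 to 16359 genes and 6.21% to 8.21% of the FPKM on the mitochondrial genome. The files hold no read numbers, so absolute depth is unknown and no counting interval can be given; the most frequent ratio between libraries among genes under 0.3 FPKM was 0.935 to 1.08. The d/d libraries differed more among themselves than the f/f libraries did, with a median SD of 0.366 in d/d and 0.147 in f/f on the log2(FPKM + 1) scale over the transporters tested, and of 0.301 in d/d and 0.126 in f/f over all genes tested. The summed macrophage and neutrophil markers were highest in d/d replicate 2.

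A few transporters were abundant and many were near 0. Of the 60, 5 were listed at 0 in all 6 libraries, 14 had a 0 in some libraries, and 41 had a value above 0 in each. Those at 0 throughout were Slc1a7, Slc6a5, Slc6a18, Slc7a9 and Slc7a12, and a listed 0 can be a failed estimate. The 31 members at 1 FPKM or more in at least 3 of the 6 libraries were tested, and no value of the other 29 exceeded 3.14 FPKM (Slc6a15); next came Slc7a3 with at most 1.55 and Slc36a2 with at most 1.39 FPKM. Summed over all 60 genes the level was 631, 609 and 693 FPKM in d/d replicates 1, 2 and 3, against 616, 629 and 630 FPKM in f/f replicates 1, 2 and 3. The groups overlapped in this sum, at about 0.1% of each library (0.0973% to 0.114% in d/d and 0.109% to 0.118% in f/f). The 5 most abundant genes made up 55.4% to 68.2% of it in d/d and 59.1% to 61.6% in f/f libraries. The first 3 places by mean level were the same in both genotypes: Slc1a5, then Slc3a2, then Slc38a2. Slc6a14 was in place 26 in d/d and place 8 in f/f, and Slc6a2 in place 30 in d/d and place 9 in f/f.

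Between genotypes, 5 of the 31 transporters tested changed by limma at an adjusted p under 0.05 (Benjamini-Hochberg over all 12979 genes tested), 1 higher and 4 lower in d/d, or 16.1%. Over all genes tested 7.30% were called, 3.49% higher and 3.81% lower. By family, 1 of 4 Slc1, 2 of 6 Slc6 and 2 of 8 Slc7 genes tested changed, and 0 of 1 Slc3, 2 Slc36, 8 Slc38 and 2 Slc43 genes, of which 1, 0, 1 and 1 had an unadjusted p under 0.05. The gene that rose was Slc7a11, the light chain of the cystine-glutamate exchanger. Those that fell were Slc6a14, a concentrating carrier of neutral and basic amino acids, Slc6a2, the noradrenaline carrier, Slc7a2, a carrier of arginine and other basic amino acids, and Slc1a3, a carrier of glutamate and aspartate. Slc1a3 met the level needed for testing through the f/f libraries alone, and Slc6a2 reached 1 FPKM in d/d only in replicate 1. The median log2 fold change (d/d minus f/f, on log2(FPKM + 1), which understates changes of low genes) was -0.11 over the 31, with 15 above and 16 below 0, against 0.02 over all genes tested. In 14 of the 31 the d/d and f/f ranges were apart, 5 higher and 9 lower, where 35.9% of all genes tested did not overlap, 18.1% higher and 17.8% lower. An unadjusted p under 0.05 by limma was found for 10 of the 31 transporters and for 26.7% of all genes tested. These shares describe a name-defined list, and no test of the list was made.

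**Figure D1:**
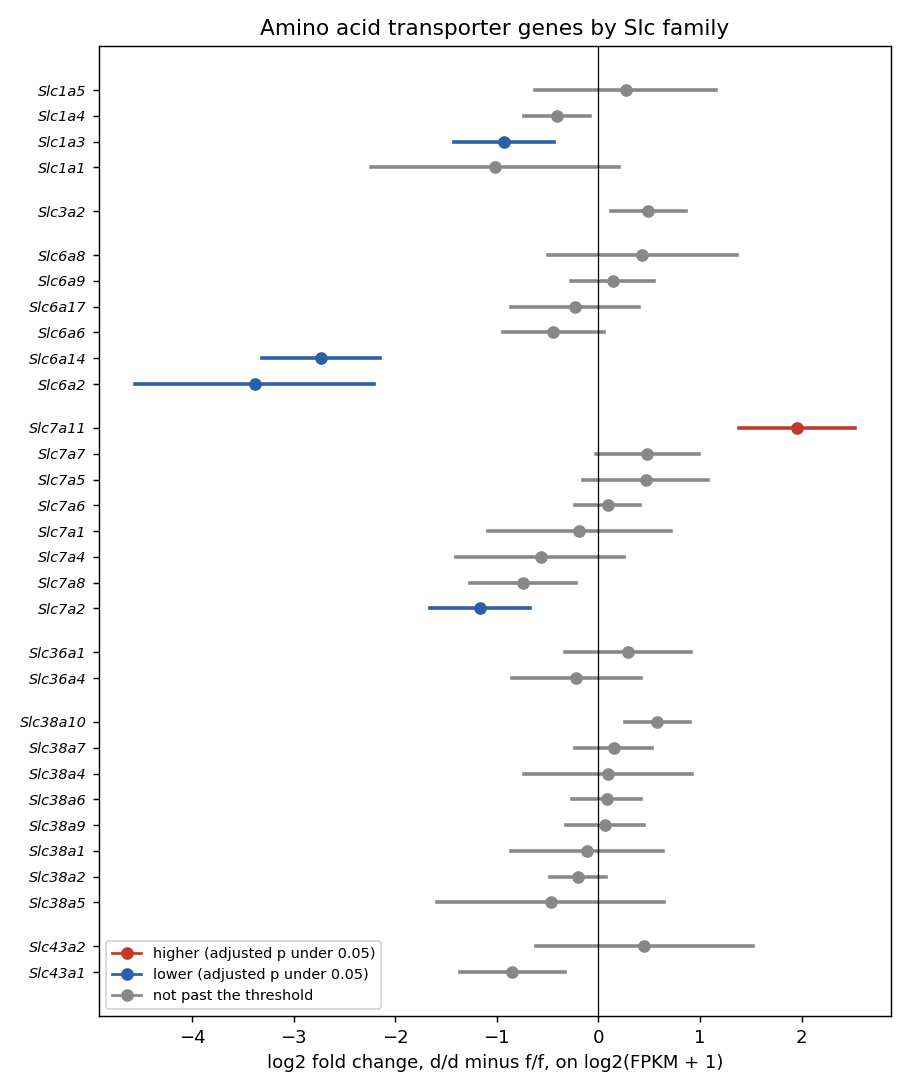
Log2 fold change (d/d minus f/f, on log2(FPKM + 1), horizontal axis) of the 31 transporters tested, grouped by Slc family and sorted within it; points are limma estimates, lines 95% intervals, red marks genes higher, blue lower and grey not past an adjusted p of 0.05. Slc7a11 at 1.95 is the 1 red gene, and Slc6a2 at -3.38 and Slc6a14 at -2.73 lie farthest to the left.

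Among the Slc6 genes, which run on the sodium and chloride gradients, Slc6a14 had the lowest p of the members. Slc6a14 (ENSMUSG00000031089, chromosome X, 21714896 to 21742355, plus strand, GRCm38) encodes a carrier of epithelia that accepts most neutral and basic amino acids. It was at 3.26, 2.76 and 1.54 FPKM in d/d replicates 1, 2 and 3, against 21.3, 18.6 and 26.3 FPKM in f/f replicates 1, 2 and 3. Each d/d library lay far under each f/f library, and the ratio of the f/f to the d/d mean was 8.75 (log2 fold change -2.73, SE 0.24, limma adjusted p = 0.00703). The call was kept without any 1 of the d/d libraries and without f/f replicate 3, and was lost without f/f replicate 1 (adjusted p = 0.0578) and without f/f replicate 2 (adjusted p = 0.0514), where the log2 fold changes were -2.75 and -2.84.

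Slc6a2 (chromosome 8, 92960079 to 93001667, plus strand) encodes the carrier that clears noradrenaline from the space around sympathetic nerve endings and is no amino acid carrier. It was at 2.71, 0.240 and 0.0626 FPKM in d/d replicates 1, 2 and 3, against 20.7, 16.2 and 13.9 FPKM in f/f replicates 1, 2 and 3. The d/d libraries differed among themselves, with replicate 1 far over the other two, and all were under the f/f range. The ratio of the f/f to the d/d mean was 16.9 (log2 fold change -3.38, SE 0.49, limma adjusted p = 0.0204), with a loss of the call without f/f replicates 1, 2 or 3 (adjusted p = 0.116, 0.108 and 0.0812). The other monoamine carriers, Slc6a3 for dopamine and Slc6a4 for serotonin, stayed at or under 0.181 FPKM in every library.

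The other Slc6 genes with a sizeable level differed less. Slc6a6, the carrier of taurine, an osmolyte, was the most abundant of the family, at 37.2, 38.0 and 24.2 FPKM in d/d and 44.7, 39.6 and 50.3 FPKM in f/f replicates 1, 2 and 3. Its groups did not overlap but the difference did not pass (log2 fold change -0.45, limma adjusted p = 0.228). Slc6a8, the creatine carrier, was at 14.0, 40.1 and 16.2 FPKM in d/d libraries and 13.3, 16.1 and 16.6 FPKM in f/f libraries, so d/d replicate 2 alone stood out (limma adjusted p = 0.514). Slc6a9, a glycine carrier, averaged 6.86 ± 1.42 FPKM in d/d and 6.06 ± 0.323 FPKM in f/f (SD, n = 3 each, limma adjusted p = 0.641); it overlaps Ccdc24 and B4galt2 on the other strand, and the use of strand is not stated. Slc6a17 averaged 2.08 ± 0.759 FPKM in d/d and 2.59 ± 0.790 FPKM in f/f (limma adjusted p = 0.614). The remaining 13 Slc6 genes were not tested. Among these Slc6a15, a carrier of branched-chain amino acids and proline, reached 3.14 FPKM in f/f replicate 3 and was between 0.140 and 1.05 FPKM in the other libraries.

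**Figure D2:**
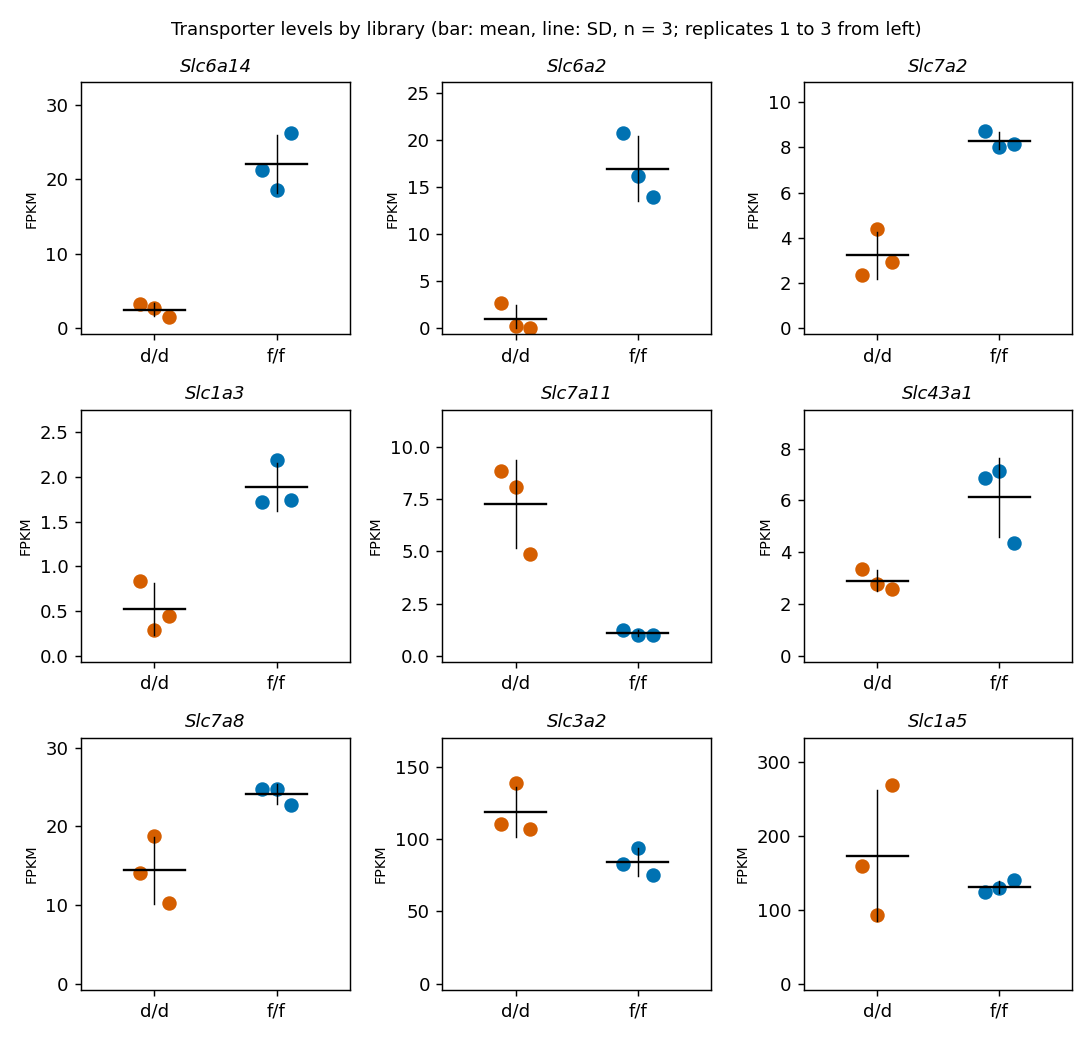
FPKM (vertical axis, linear) of 9 transporters in the d/d and f/f libraries, 3 each, with points for replicates 1 to 3 from left to right, a bar at the mean and a line of 1 SD each way (drawn to 0 at the lowest). In all panels but that of Slc1a5 the d/d and f/f points do not overlap; Slc1a5 spans 92.2 to 268 FPKM in d/d and 124 to 140 FPKM in f/f.

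Slc7a11 (ENSMUSG00000027737, chromosome 3, 49892526 to 50443614, minus strand, GRCm38) was the 1 transporter that rose. With its heavy chain it brings cystine into the cell and lets glutamate out, and cystine gives cysteine for glutathione. Its gene is a textbook target of ATF4, the transcription factor made when amino acids are short or the stress-activated kinases of translation are on, and of the oxidant-responsive factor NRF2. It was at 8.85, 8.09 and 4.87 FPKM in d/d replicates 1, 2 and 3, against 1.26, 1.00 and 1.00 FPKM in f/f replicates 1, 2 and 3. All d/d libraries lay well over the f/f libraries, and the ratio of the d/d to the f/f mean was 6.67 (log2 fold change 1.95, SE 0.23, limma adjusted p = 0.0135). The fold change was 1.81 to 2.18 with any 1 library left out, and the call was lost without f/f replicates 1, 2 or 3 (adjusted p = 0.0838, 0.0920 and 0.0662).

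The bases just before the start of Slc7a11 are shown because they hold the letters of the element through which ATF4 acts, the amino acid response element. The sequence is from RefSeq (GRCm38.p6), minus strand, chr3:50443614-50443863, written 5′ to 3′ and ending at the base before the start, with matches to TGATGNAA on either strand in capitals.
Slc7a11: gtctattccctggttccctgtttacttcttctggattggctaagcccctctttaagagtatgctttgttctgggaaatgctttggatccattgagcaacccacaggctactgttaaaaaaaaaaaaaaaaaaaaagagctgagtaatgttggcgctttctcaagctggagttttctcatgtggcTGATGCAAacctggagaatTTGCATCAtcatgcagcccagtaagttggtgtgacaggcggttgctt
The 2 matches, both TGATGCAA read on their own strand, begin 66 and 47 bases before the start and face each other. RefSeq promoters of 43 of the 60 members gave 64 such windows of the 250 bases before the start. Matches to TGATGNAA stood in 4 of the 64 windows, from 3 members, Slc7a11, Slc7a7 and Slc6a21, the last of which was not tested. Of all 32851 windows 3.45% held a match. The core of the antioxidant response element, TGACNNNGC, matched in 9 of the 64 windows, from 8 members, and in 10.2% of all windows. It did not match in that of Slc7a11. Both strands were searched. These are matches of letters in short windows and show no binding.

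Of 22 other genes, Atf4 itself and genes known to be raised through it or by amino acid shortage, 4 rose and 0 fell in d/d by limma over all genes. These were 18.2% called, against 7.30% of all genes tested, 3.49% higher and 3.81% lower. The list was chosen with earlier results of these data known, so its share of calls does not test a role of ATF4. It was less one-sided than the calls, with 11 estimates above and 11 below 0. In it 5 genes were apart and higher and 5 apart and lower, where 18.1% and 17.8% of all genes tested were. Chac1, which encodes an enzyme that breaks down glutathione, was at 1.93, 1.44 and 2.40 FPKM in d/d replicates 1, 2 and 3, against 0.161, 0.199 and 0.200 FPKM in f/f replicates 1, 2 and 3 (log2 fold change 1.29, limma adjusted p = 0.0224). Its f/f values were under 1 FPKM, so it met the level needed for testing through the d/d libraries alone. Stc2, which encodes a secreted glycoprotein, rose by 1.86 on the log2 scale, the stress gene Nupr1 by 1.94 and the transcription factor gene Cebpb by 2.02 (limma adjusted p = 0.0289, 0.0351 and 0.0454). Asns, for asparagine synthetase and a standard marker of the amino acid response, was instead at 9.68, 12.5 and 20.0 FPKM in d/d against 20.8, 27.4 and 29.0 FPKM in f/f libraries and did not pass (log2 fold change -0.87, limma adjusted p = 0.107; named after its value was seen). Atf4 RNA itself was at 69.3, 90.1 and 152 FPKM in d/d and 80.9, 65.1 and 64.2 FPKM in f/f libraries (limma adjusted p = 0.330; likewise), with overlap between the groups.

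The heavy chain Slc3a2 (chromosome 19, 8706882 to 8723369, minus strand), known as CD98hc or 4F2hc, carries 6 light chains of family Slc7 to the cell surface. It was the second most abundant member, at 111, 139 and 107 FPKM in d/d replicates 1, 2 and 3, against 83.1, 94.2 and 75.5 FPKM in f/f replicates 1, 2 and 3. The groups did not overlap, but the difference did not pass (log2 fold change 0.49, 95% interval 0.12 to 0.86, limma adjusted p = 0.105). The other heavy chain, Slc3a1, which serves the kidney and gut, was at 0.0382 to 0.119 FPKM in d/d and 0.0794 to 0.163 FPKM in f/f, and its light chain Slc7a9 was listed at 0 in every library.

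The light chains of Slc3a2 overlapped in their sum between the genotypes, while 2 of their shares were far apart. The sum was 58.5, 71.5 and 64.7 FPKM in d/d replicates 1, 2 and 3, against 58.5, 58.5 and 54.5 FPKM in f/f replicates 1, 2 and 3. Slc7a11 made up 15.1%, 11.3% and 7.52% of it in d/d, against 2.16%, 1.71% and 1.84% in f/f libraries. Slc7a8, or LAT2, which exchanges neutral amino acids, made up 24.1%, 26.4% and 15.9% in d/d, against 42.4%, 42.4% and 41.7% in f/f libraries. The share of Slc7a11 was higher and that of Slc7a8 lower in each d/d library, and shares of a sum constrain each other. The ratio of Slc7a11 to Slc7a8 averaged 0.510 ± 0.104 in d/d and 0.0452 ± 0.00532 in f/f (SD, n = 3 each). Of the light chains tested, Slc7a11 had the highest and Slc7a8 the lowest log2 fold change. Their ratio therefore restates these differences and adds no separate evidence. Slc3a2 exceeded the summed light chains 1.90, 1.94 and 1.65 times in d/d libraries and 1.42, 1.61 and 1.39 times in f/f libraries.

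As single genes the other light chains did not pass. Slc7a8 was at 14.1, 18.8 and 10.3 FPKM in d/d and 24.8, 24.8 and 22.7 FPKM in f/f replicates 1, 2 and 3 (log2 fold change -0.74, limma adjusted p = 0.0903). It passed without d/d replicate 2 (adjusted p = 0.0299), where 1367 genes were called against 947 with all libraries. Slc7a5, or LAT1, which brings in leucine and other large neutral amino acids, was at 14.5, 15.6 and 28.1 FPKM in d/d and 13.3, 12.5 and 13.6 FPKM in f/f libraries (limma adjusted p = 0.295), so the groups did not overlap and d/d replicate 3 was the highest by far. Slc7a7, which exchanges basic for neutral amino acids, was at 11.6, 18.1 and 11.5 FPKM in d/d and 9.41, 10.5 and 8.16 FPKM in f/f libraries (limma adjusted p = 0.204); it overlaps Oxa1l on the other strand. Slc7a6, of the same kind, averaged 9.94 ± 0.980 FPKM in d/d and 9.26 ± 0.260 FPKM in f/f (SD, n = 3 each, limma adjusted p = 0.701).

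**Figure D3:**
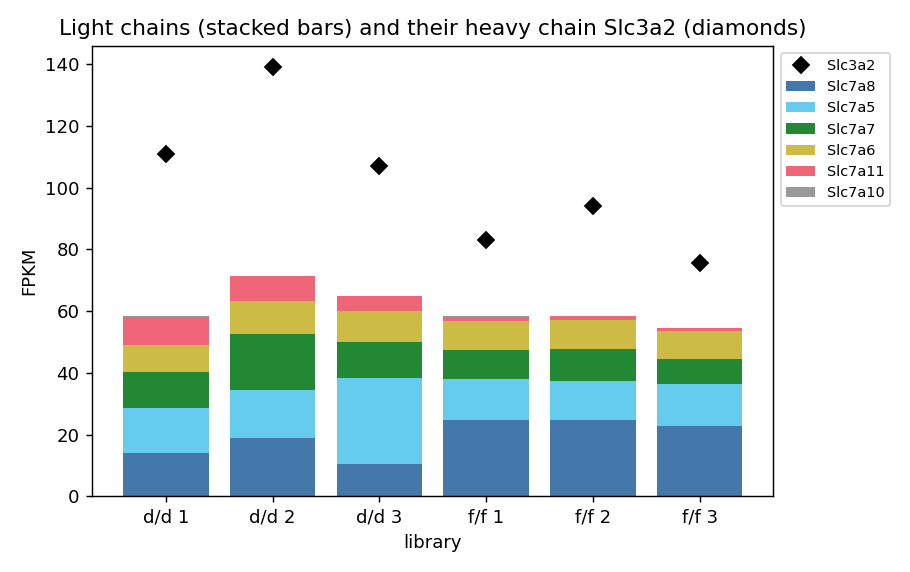
FPKM (vertical axis, linear from 0) of the 6 light chains of Slc3a2 as stacked bars, and of Slc3a2 itself as diamonds, in each library (horizontal axis, d/d then f/f). The bars reach 58.5 to 71.5 FPKM in d/d and 54.5 to 58.5 FPKM in f/f; the Slc7a11 part is larger and the Slc7a8 part smaller in the d/d bars.

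The cationic carriers of Slc7 work without a heavy chain and bring arginine, lysine and ornithine into the cell. Slc7a2, or CAT2 (chromosome 8, 40862396 to 40922308, plus strand), was at 2.37, 4.38 and 2.92 FPKM in d/d replicates 1, 2 and 3, against 8.74, 8.01 and 8.15 FPKM in f/f replicates 1, 2 and 3. All d/d libraries lay under the f/f libraries, with a ratio of the f/f to the d/d mean of 2.58 (log2 fold change -1.17, SE 0.20, limma adjusted p = 0.0292). The call was lost without f/f replicates 1, 2 or 3 (adjusted p = 0.145, 0.134 and 0.114), without d/d replicate 3 (0.0504) and with no filter on low values (0.0514). Slc7a1, or CAT1, the widely expressed form, was at 8.64, 4.94 and 15.7 FPKM in d/d and 10.9, 11.5 and 8.55 FPKM in f/f libraries, with the f/f values inside the d/d range (limma adjusted p = 0.781). Slc7a3 stayed at 1.55 FPKM or less and was not tested. Slc7a4, a relative of these carriers, averaged 4.09 ± 1.10 FPKM in d/d and 6.93 ± 3.50 FPKM in f/f (SD, n = 3 each, limma adjusted p = 0.330); it overlaps P2rx6 on the other strand.

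In Slc1, sodium-driven carriers of acidic amino acids stand beside exchangers of small neutral ones. Slc1a3 (chromosome 15, 8634124 to 8710764, minus strand), which in brain clears glutamate into glia, was at 0.841, 0.289 and 0.441 FPKM in d/d replicates 1, 2 and 3, against 1.72, 2.19 and 1.74 FPKM in f/f replicates 1, 2 and 3. The groups were apart at a low level, and the ratio of the f/f to the d/d mean was 3.59 (log2 fold change -0.93, SE 0.20, limma adjusted p = 0.0487). All d/d values were under 1 FPKM, so Slc1a3 met the level needed for testing through the f/f libraries alone. With no filter on low values it was also called (limma adjusted p = 0.0445). This call lay at the threshold. It was lost with a pseudocount of 0.1 (adjusted p = 0.0645), with libraries scaled to the same sum (0.0505), with a weight for each genotype (0.0648) and without any 1 library other than d/d replicate 1 (0.0640 to 0.198).

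Slc1a1, the acidic carrier with the higher level, differed widely among the d/d libraries, at 55.3, 13.2 and 19.0 FPKM in d/d replicates 1, 2 and 3, against 48.6, 62.3 and 40.9 FPKM in f/f replicates 1, 2 and 3. Replicate 1 of d/d lay within the f/f range and the other two under it, and the difference did not pass (log2 fold change -1.02, 95% interval -2.24 to 0.20, limma adjusted p = 0.257). Without d/d replicate 1 Slc1a1 passed, at a log2 fold change of -1.60 (limma adjusted p = 0.0264). In that fit 1319 genes were called, against 947 with all libraries. Slc1a1 overlaps 4430402I18Rik on the other strand.

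Slc1a5, or ASCT2, the sodium-dependent exchanger through which many cells take up glutamine, was the most abundant member. It was at 159, 92.2 and 268 FPKM in d/d replicates 1, 2 and 3, against 124, 129 and 140 FPKM in f/f replicates 1, 2 and 3. The d/d libraries lay on both sides of the f/f range (log2 fold change 0.27, 95% interval -0.62 to 1.16, limma adjusted p = 0.679), and the sign turned without d/d replicate 3 (-0.11). In d/d replicate 3 Slc1a5, Slc7a5 and Slc7a1 were each at the highest value of the 6 libraries. They were among 7 of the 31 transporters tested (22.6%) that peaked in that library, where 29.4% of all genes tested did. Slc1a4, or ASCT1, a carrier of serine and alanine, was at 4.44, 4.66 and 4.90 FPKM in d/d and 6.52, 6.95 and 6.10 FPKM in f/f libraries, apart but not past the threshold (limma adjusted p = 0.117).

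The Slc38 family, which holds the main sodium-driven carriers of glutamine and other small neutral amino acids, had no member past the threshold. Over all genes tested 7.30% were called and 26.7% had an unadjusted p under 0.05, and 8 genes are too few to compare with these shares. Of the 8 tested by limma, 0 were called and 1 had an unadjusted p under 0.05. That gene was Slc38a10, at 37.7, 47.0 and 40.9 FPKM in d/d replicates 1, 2 and 3, against 27.5, 25.5 and 29.9 FPKM in f/f replicates 1, 2 and 3 (log2 fold change 0.58, SE 0.13, limma adjusted p = 0.0518). It passed without d/d replicate 1 (adjusted p = 0.0449), where 1319 genes were called against 947 with all libraries. Slc38a2, or SNAT2, which cells raise when amino acids are short, was the most abundant of the family. It was at 60.3, 54.9 and 54.3 FPKM in d/d and 63.1, 62.1 and 70.5 FPKM in f/f libraries, apart but not past the threshold (log2 fold change -0.20, limma adjusted p = 0.299). The system A carriers, Slc38a1, Slc38a2 and Slc38a4, summed to 66.2, 68.1 and 68.9 FPKM in d/d and 75.0, 75.2 and 79.8 FPKM in f/f libraries, also without overlap. Slc38a1, which is in that sum, averaged 10.1 ± 4.01 FPKM in d/d and 10.4 ± 1.40 FPKM in f/f, and the less studied Slc38a6 averaged 10.3 ± 0.801 FPKM in d/d and 9.75 ± 1.07 FPKM in f/f (SD, n = 3 each, limma adjusted p = 0.853 and 0.761). Slc38a5, a carrier of glutamine and histidine, was at 0.767, 0.998 and 4.33 FPKM in d/d and 3.97, 1.88 and 2.51 FPKM in f/f libraries, with the d/d values on both sides of the f/f range.

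The carriers of the lysosome among the members, Slc38a7, Slc38a9, Slc36a1 and Slc36a4, showed no difference past the threshold. Slc38a9, the arginine sensor that reports on the lysosome to the growth kinase mTORC1, averaged 3.61 ± 0.373 FPKM in d/d and 3.42 ± 0.449 FPKM in f/f (log2 fold change 0.06, 95% interval -0.32 to 0.45, limma adjusted p = 0.839). Slc38a7, which lets glutamine out of the lysosome, averaged 15.9 ± 2.40 FPKM in d/d and 14.2 ± 1.46 FPKM in f/f (limma adjusted p = 0.588), and Slc36a1, a proton-driven carrier of small amino acids, 8.48 ± 2.77 FPKM in d/d and 6.61 ± 1.28 FPKM in f/f (SD, n = 3 each, limma adjusted p = 0.513). The relative Slc36a2, not tested for its low level, was at 1.39, 0.973 and 0.0824 FPKM in d/d and 0.154, 0.178 and 0.167 FPKM in f/f libraries, high in 2 d/d libraries and low in the third.

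The Slc43 genes encode facilitators that let large neutral amino acids follow their gradient. Slc43a1, or LAT3, was at 3.37, 2.76 and 2.58 FPKM in d/d replicates 1, 2 and 3, against 6.86, 7.15 and 4.37 FPKM in f/f replicates 1, 2 and 3. The groups were apart by a ratio of the f/f to the d/d mean of 2.11, but the difference did not pass (log2 fold change -0.85, 95% interval -1.36 to -0.33, limma adjusted p = 0.0666). Slc43a2, or LAT4, was at 5.23, 12.6 and 2.89 FPKM in d/d and 4.07, 3.55 and 4.52 FPKM in f/f libraries. Its highest and lowest values were both in d/d libraries, and its log2 fold change of 0.45 became -0.03 without d/d replicate 2.

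Several transporters varied more among the d/d libraries than between the genotypes, and markers of cell types also varied among the d/d libraries. In bulk tissue, fewer cells of a type and less RNA per cell cannot be told apart. The counts of markers called stand against 3.49% of all genes tested called higher and 3.81% called lower. The 14 markers of luminal and shared epithelium summed to 1013 to 3909 FPKM in d/d and 1385 to 1577 FPKM in f/f libraries. The sum was lowest in d/d replicate 2, and 3 of 14 rose and 0 fell. Estimates were above 0 for 11 and below 0 for 3, namely Lpar3 at -2.40, Cldn3 at -1.15 and Krt18 at -0.05. None of the 14 was at 0. Of 6 gland markers tested out of 8, 3 fell and 0 rose, with sums of 17.1 to 70.1 FPKM in d/d and 89.4 to 124 FPKM in f/f. Spink1 and Ttr were listed at 0 in d/d replicates 2 and 3 and were under 1 FPKM in d/d replicate 1. Both met the level needed for testing through the f/f libraries alone. Cxcl15 was listed at 0 in d/d replicate 3, and Prss28 and Prss29 were at 0.296 FPKM or less in every library. Of 12 stroma markers 3 fell and 0 rose, with sums of 1916 to 4568 FPKM in d/d and 3305 to 3656 FPKM in f/f. Those that fell were the transcription factor genes Hoxa10, Hoxa11 and Hand2, with log2 fold changes of -2.16, -2.22 and -1.71. Vim and Pdgfra were also lower in each d/d library but did not pass (log2 fold changes -1.27 and -1.44, limma adjusted p = 0.0647 and 0.114). Pdgfra was named after its values were seen. Apart and lower were 5 of the 12, and 0 were apart and higher. Estimates were above 0 for 5 of the 12, the highest being Lum at 0.98 and Dcn at 0.62, which did not pass. None of the 12 was at 0.

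Of 8 endothelium markers 1 fell and 0 rose, with sums of 224 to 375 FPKM in d/d and 382 to 581 FPKM in f/f. Estimates were below 0 for 7 of the 8, and 6 had an unadjusted p under 0.05 by limma. Apart and lower were 6, and 0 were apart and higher, where 17.8% and 18.1% of all genes tested were. Of 9 smooth muscle markers 2 fell and 0 rose, with 8 estimates below 0 and sums of 1140 to 4786 FPKM in d/d and 2517 to 6008 FPKM in f/f. Of 8 macrophage markers tested out of 9, 1 rose, 4 were apart and higher, and all 8 estimates were above 0. The 9 summed to 1047, 3503 and 443 FPKM in d/d replicates 1, 2 and 3 and 318 to 448 FPKM in f/f. The marker that rose was Cd68, at 98.2, 231 and 69.2 FPKM in d/d and 15.7 to 23.7 FPKM in f/f libraries, and the C1q genes made up most of the sum. The 8 neutrophil markers, 6 of them tested and 0 called (1 with an unadjusted p under 0.05 by limma), summed to 31.5, 1180 and 28.0 FPKM in d/d and 8.14 to 15.7 FPKM in f/f libraries. Among them Ly6g was highest in d/d replicate 3, with 5.80 FPKM in d/d replicate 2, while S100a9 was listed at 0 in d/d replicate 3 and Mmp8 at 0 in f/f replicate 2. Of the 31 transporters tested, 10 (32.3%) had their highest value in d/d replicate 2, the library with the highest macrophage and neutrophil sums, where 21.1% of all genes tested did. These were Slc3a2, Slc6a8, Slc7a6, Slc7a7, Slc36a1, Slc36a4, Slc38a7, Slc38a9, Slc38a10 and Slc43a2. Of 4 red cell markers tested out of 7, and of 3 oviduct and ovary markers tested out of 8, none passed (3 and 1 had an unadjusted p under 0.05 by limma). The part of cell makeup in the transporter changes was not tested.

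**Figure D4:**
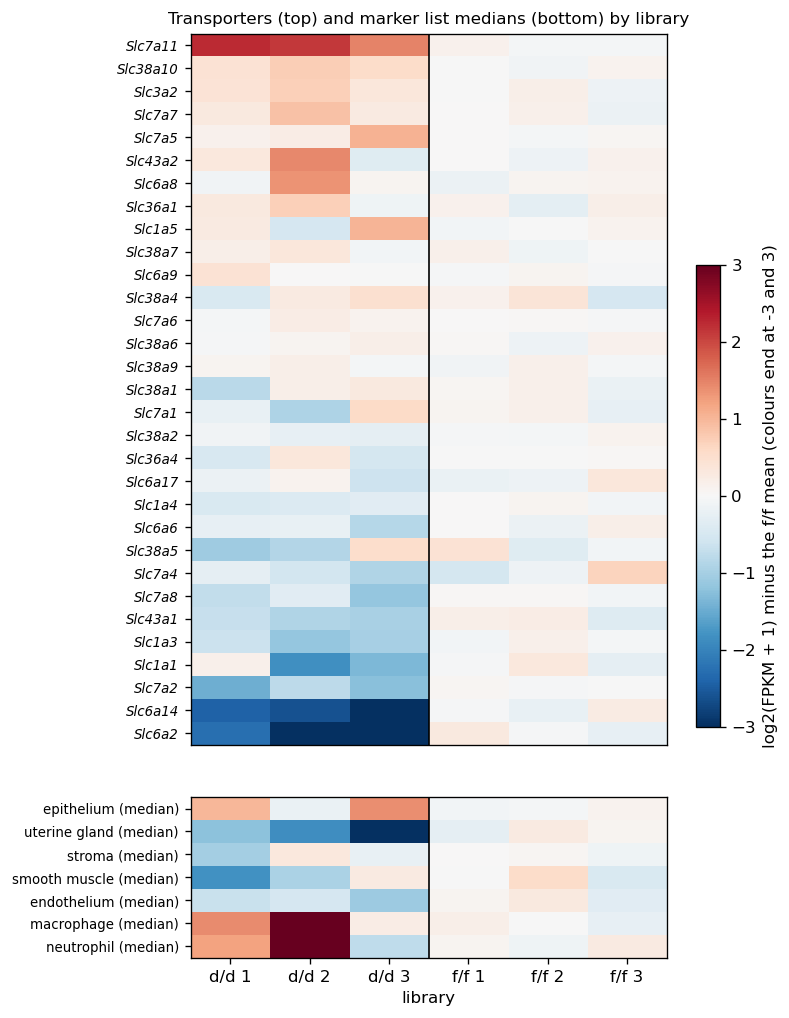
Colours give log2(FPKM + 1) minus the f/f mean (red higher, blue lower, ending at -3 and 3) for the 31 transporters tested (top, sorted by the d/d mean) and for the medians of 7 marker lists (bottom), in the 3 d/d and the 3 f/f libraries. Slc7a11 is red and Slc6a2, Slc6a14 and Slc7a2 are blue in each d/d column, while Slc1a1, Slc1a5, Slc6a8 and Slc43a2 differ among the d/d columns, as the macrophage and neutrophil medians do.

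Enzymes that use the same amino acids as the carriers were among the genes that fell. Of 21 amino acid enzymes tested out of 25, 3 were lower and 0 higher by limma over all genes. These were 14.3% called, against 7.30% over all genes tested, 3.49% higher and 3.81% lower. This list was also chosen with earlier results of these data known, and no test of it was made. Estimates were above 0 for 10 and below 0 for 11. In the list 3 genes were apart and higher and 7 apart and lower, where 18.1% and 17.8% of all genes tested were. Gldc, of the glycine cleavage system, was at 0.495, 0.196 and 0.119 FPKM in d/d replicates 1, 2 and 3, against 7.50, 6.33 and 7.39 FPKM in f/f replicates 1, 2 and 3 (log2 fold change -2.68, limma adjusted p = 0.00517). The d/d values were under 1 FPKM, so Gldc met the level needed for testing through the f/f libraries alone. Its levels were far apart, while the glycine carrier Slc6a9 overlapped between the genotypes. Asl, which releases arginine in the cell from argininosuccinate, was at 13.9, 12.8 and 9.65 FPKM in d/d, against 59.7, 58.3 and 62.6 FPKM in f/f libraries (log2 fold change -2.24, limma adjusted p = 0.00517). It fell as Slc7a2, the arginine carrier, did, and a link between these changes was not tested. Ass1, another enzyme of the list named after its values were seen, went the other way and did not pass. It was at 2.60, 5.56 and 10.8 FPKM in d/d, against 0.809, 1.57 and 1.91 FPKM in f/f libraries (log2 fold change 1.46, limma adjusted p = 0.102).

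On the cysteine side, Cth, the enzyme that makes cysteine from cystathionine, was at 3.53, 1.79 and 0.572 FPKM in d/d replicates 1, 2 and 3, against 8.09, 8.91 and 13.1 FPKM in f/f replicates 1, 2 and 3 (log2 fold change -2.00, limma adjusted p = 0.0396). It fell where the cystine carrier Slc7a11 rose, and a link between these changes was not tested. Cbs, another enzyme of the list, was lower in each d/d library and did not pass (log2 fold change -2.69, limma adjusted p = 0.0915). Gclc and Gclm, also in the list, overlapped between the genotypes (log2 fold change 0.30 and 0.11, limma adjusted p = 0.627 and 0.740). Cbs, Gclc and Gclm were named after their values were seen. Glul, which makes glutamine from glutamate, was at 170, 94.4 and 178 FPKM in d/d, against 348, 399 and 281 FPKM in f/f libraries, apart and just short of the threshold (log2 fold change -1.25, limma adjusted p = 0.0501). Arg1, named after its values were seen, breaks down arginine to ornithine and urea. It was at 1.45, 48.4 and 161 FPKM in d/d and 0.725, 0.587 and 1.35 FPKM in f/f libraries and did not pass, the d/d libraries being far apart (limma adjusted p = 0.154).

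**Figure D5:**
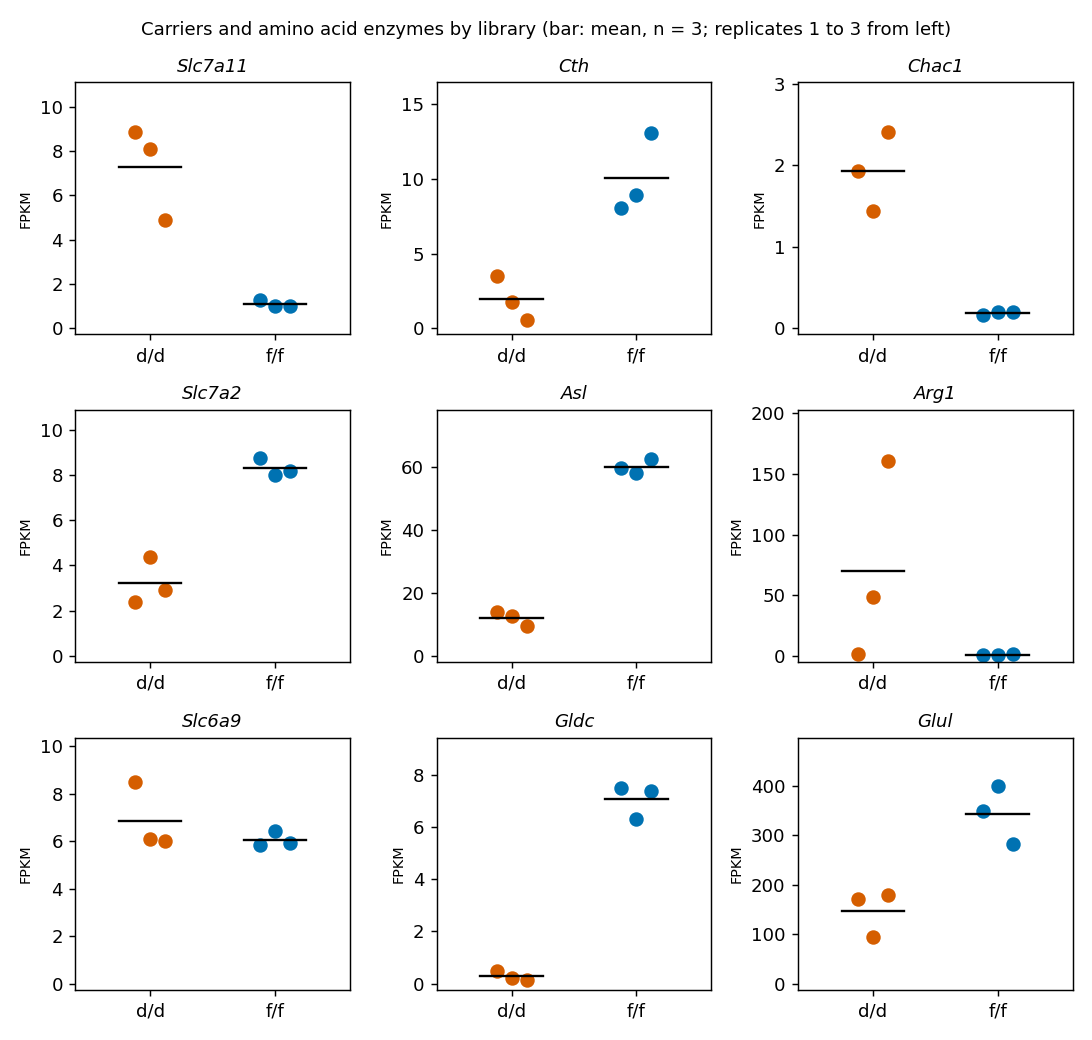
FPKM (vertical axis, linear) of 3 carriers and 6 amino acid genes in d/d and f/f libraries, 3 each, with points for replicates 1 to 3 from left to right and a bar at the mean. Slc7a11 and Chac1 are higher and Cth, Slc7a2, Asl, Gldc and Glul lower in each d/d library, Slc6a9 overlaps, and Arg1 reaches 48.4 and 161 FPKM in d/d replicates 2 and 3 against 1.45 FPKM in d/d replicate 1.

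The machinery that senses amino acids or loads them on tRNA had no gene past the threshold. Of 29 genes of amino acid sensing to mTORC1, limma called 0, with 4 at an unadjusted p under 0.05 and a median log2 fold change of -0.07. The lowest p was that of Depdc5, a subunit of a brake on mTORC1, at 7.44, 4.68 and 5.94 FPKM in d/d and 9.74, 11.1 and 10.6 FPKM in f/f libraries (limma adjusted p = 0.0663). Of 20 cytosolic aminoacyl-tRNA synthetases limma called 0, with 1 at an unadjusted p under 0.05 and a median of -0.03. Over all genes tested 7.30% were called and 26.7% had an unadjusted p under 0.05. In lists of 29 and 20 genes, 0 calls do not show that the machinery was spared. Of 10 further amino acid carriers tested out of 18 that the name rule leaves out, 1 rose: Pqlc2, a carrier of basic amino acids out of the lysosome, at 8.93, 9.76 and 7.52 FPKM in d/d against 3.73, 5.13 and 4.36 FPKM in f/f libraries (log2 fold change 0.85, limma adjusted p = 0.0386).

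Because Mettl3 writes m6A, the letters GGACT, the DNA form of the commonest core of its target motif, were counted in the longest annotated transcript of each gene. The 31 transporters had a median of 1.01 per kb (quartiles 0.590 and 1.34) and 12835 tested genes with a transcript a median of 1.04 per kb (quartiles 0.653 and 1.50). Of the 5 called, Slc1a3 had 1.13 per kb, while Slc7a11 with 0.434, Slc7a2 with 0.379, Slc6a2 with 0.323 and Slc6a14 with 0.291 per kb were under the lower quartile of all genes. This is a count of letters, given with no test; m6A was not measured here.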

How the data were processed

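The tools named, per the submitters' processing notes, are HISAT2 2.2.1 and Cufflinks 2.2.1, with both mm9 and mm10 as builds. Which build the values rest on, the annotation and whether strand was used are not stated there. TRIzol extraction and a TruSeq RNA kit are named, per the labels' protocols. The authors deposited 1 value per gene and library, taken as FPKM because the values are decimals with unequal sums and Cufflinks writes FPKM. Cufflinks shares fragments between near-identical genes, so values of close copies are uncertain.

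Of rows that shared a symbol the one with the highest mean was kept (36 rows removed, no transporter among them). Genes with at least 1 FPKM in at least 3 of the 6 libraries (12979) were put on the log2(FPKM + 1) scale for limma 3.58.1 (R 4.3.3; two-sided test of genotype, prior variance following intensity), with p-values adjusted by Benjamini-Hochberg over all; the fit was checked on simulated data. Genes were called at an adjusted p under 0.05. Positions are those of GENCODE M21 (GRCm38), matched by gene ID for all 60 members. Values were described gene by gene for members that were called, for those apart by at least 2-fold, for the heavy chains and for the most abundant member of each family; the others are given by role. From each other list up to 4 genes were named in order of p, beyond those said to be named after their values were seen. The members and lists were chosen with earlier results of these data known. Alternatives were another pseudocount, no filter, 2 scalings, 2 models of spread, the replicate block and each library left out.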

Additional observations from a re-analysis of the deposited data

How the results depend on the processing

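With any 1 library left out, the number of genes called ranged from 0 to 1367 (947 with all), that of transporters higher from 0 to 2 (1 with all) and that of transporters lower from 0 to 5 (4 with all). The lowest counts came without f/f replicate 1, where 0 of 12979 genes were called and 2292 had an unadjusted p under 0.05; without f/f replicates 2 and 3, 30 and 111 genes were called. Mettl3 had log2 fold changes of 0.31 to 0.62, the highest and past the threshold without d/d replicate 2 (adjusted p = 0.0422). Those of Slc1a5 ranged from -0.11 to 0.65 and those of Slc43a2 from -0.03 to 0.87, both turning sign. With the replicate block 100 genes were called, 0 transporters higher and 2 lower (Slc6a14 and Slc6a2), with adjusted p of 0.0521 for Slc7a11, 0.0887 for Slc7a2 and 0.135 for Slc1a3. The cause was not tested. Deviations of same-numbered libraries correlated at -0.02, 0.02 and -0.02, and those of libraries with unlike numbers at -0.14 to 0.12. With 3 libraries per genotype, these values cannot tell whether same-numbered libraries were handled together. Under the other settings 683 to 966 genes and 4 or 5 transporters were called, and no named transporter turned sign. Scaling to the same sum moved the median of all genes to -0.08, against 0.02 as deposited. Of 169 values of 13 named transporters under alternatives, 142 kept direction and side of the threshold, 24 fell short of it, 1 passed it and 2 turned sign. All 24 belong to the 5 transporters called, since a gene not called has no call to lose. With 1 of the 6 libraries left out, Slc6a14 kept its call 4 times, Slc6a2 and Slc7a11 each 3 times, Slc7a2 2 times and Slc1a3 1 time. Without read numbers, values under about 1 FPKM have unknown precision.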
